A study of Homo sapiens with 6 samples.

Results

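The mitosis genes are 40 genes whose products carry a cell from G2 into mitosis, build the spindle, hold the spindle checkpoint and divide the cell. They were taken from a list of gene names, with no threshold on their measured values, though earlier results of these data were known. Each gene was represented by the brightest of the probe sets annotated to it alone. All 40 genes were measured, out of 19775 genes represented on the arrays. Their response to the synthetic progestin medroxyprogesterone acetate (MPA) was measured in the IKPRAB36 line, Ishikawa endometrial cancer cells that express the progesterone receptor isoforms PRA and PRB. The 6 arrays held RNA after 48 h of culture, 3 with 1 nM MPA and 3 without MPA (control). Cells of both groups carried both receptors and were grown in medium with charcoal stripped serum, hygromycin and neomycin, so each result comes from 1 engineered line. The values are RMA signals on the log2 scale, in which a difference of 1 is a doubling.

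Entry into mitosis is driven by CDK1 bound to cyclin B, which the CDC25 phosphatases activate and the Polo and Aurora kinases assist. Kinetochores then attach chromosomes to spindle microtubules, and the checkpoint proteins hold back the anaphase-promoting complex (APC/C) until attachment is complete, after which CDC20 and the APC/C mark securin and cyclin B for destruction. Most of these genes are transcribed mainly in G2 and mitosis through the CHR element and CCAAT boxes of their promoters, so that their RNA level in a culture is widely used as a measure of proliferation. Progestins are known for restraining the growth of endometrial epithelium.

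RefSeq promoter windows (build GRCh38.p14, 250 bases before to 50 bases after the gene start, 300 bases in all) were matched by symbol for 34 of the 40 genes. AURKA, TPX2, BIRC5, TTK, UBE2C and FOXM1 were not matched. The core CHR sequence TTTGAA, searched on both strands, was present in 23 of the 34 windows (67.6%), and in 15.4% of all 27305 windows of this length. CCAAT was present in 27 of the 34 (79.4%), against 35.7% of all windows. The CHR variant TTCGAA was found in 2 windows (5.88%, against 1.45% of all), and CCAAT together with the CHR core or its variant in 21 (61.8%, against 6.58% of all), and the forkhead core TAAACA in 4 (11.8%, against 12.4%). A progesterone response element, written as the half-sites GNACA and TGTNC with 3 bases between them, matched 0 of the 34 windows and 0.388% of all windows, which says only that these letters are not in these 300 bases.

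The 4 promoters printed here belong to genes whose values differ in kind: CCNB1, CCNB2 and CDC20, whose MPA signals were lower, and HMMR, whose signal differed more between array numbers than between groups. Each line gives the 250 bases before the gene start, 5′ to 3′ on the strand of the gene, from chr5:69166900-69167149 (CCNB1), chr15:59104896-59105145 (CCNB2), chr1:43358731-43358980 (CDC20) and chr5:163460382-163460631 (HMMR), all on the plus strand. Capitals mark every match to the CHR core, its variant or CCAAT on either strand, so that a CCAAT on the other strand reads as ATTGG.
CCNB1: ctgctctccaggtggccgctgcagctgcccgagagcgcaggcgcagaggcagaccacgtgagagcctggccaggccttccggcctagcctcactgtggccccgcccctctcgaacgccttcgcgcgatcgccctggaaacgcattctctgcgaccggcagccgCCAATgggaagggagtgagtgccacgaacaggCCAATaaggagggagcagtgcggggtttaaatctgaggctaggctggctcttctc
CCNB2: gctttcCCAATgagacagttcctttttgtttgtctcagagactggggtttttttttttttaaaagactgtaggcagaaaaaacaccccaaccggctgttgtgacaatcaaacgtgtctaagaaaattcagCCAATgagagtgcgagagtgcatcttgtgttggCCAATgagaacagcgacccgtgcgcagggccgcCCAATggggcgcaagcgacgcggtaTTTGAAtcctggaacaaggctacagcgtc
CDC20: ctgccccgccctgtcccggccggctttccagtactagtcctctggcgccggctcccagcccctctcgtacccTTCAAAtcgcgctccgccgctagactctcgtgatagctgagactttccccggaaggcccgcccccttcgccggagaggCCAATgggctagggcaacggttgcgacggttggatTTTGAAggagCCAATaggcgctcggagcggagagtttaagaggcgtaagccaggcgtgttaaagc
HMMR: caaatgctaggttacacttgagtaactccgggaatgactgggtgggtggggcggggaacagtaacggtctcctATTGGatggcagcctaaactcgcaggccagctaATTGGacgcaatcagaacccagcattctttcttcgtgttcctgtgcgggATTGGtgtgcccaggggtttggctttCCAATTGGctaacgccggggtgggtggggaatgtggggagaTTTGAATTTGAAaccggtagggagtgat
The CCNB1 window held CCAAT at -87 and -55 and no TTTGAA or TTCGAA. A position is that of the leftmost base of the match relative to the gene start. Other forms of the CHR were not searched, so a window without a match may still hold one. In CCNB2, TTTGAA lay at -29, downstream of CCAAT at -54, -87, -120 and -244. CDC20 held TTTGAA at -65 and -178 and CCAAT at -55 and -100. HMMR held TTTGAA at -28 and -22, end to end, and 5 matches to CCAAT between -177 and -66, of which those at -69 and -66 overlap. A match is a description of the letters and not a measured binding site.

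The series gave the following background. Over 54613 probe sets, limma called 663 higher and 444 lower with MPA, which is 1.21% higher and 0.813% lower. A call required an adjusted p (Benjamini-Hochberg) under 0.05 together with a level at least 25% higher in one group than in the other, the fold minimum of the study's methods. The medians of the arrays lay between 5.16 and 5.28, and the arrays of a group correlated at 0.987 to 0.997. Poly-A spike-in controls averaged 6.60 on MPA 3, below the 8.09 to 8.90 of the remaining arrays, and 18S ribosomal RNA measured 6.79 on MPA 3 and 7.93 to 8.75 elsewhere. Of 11 markers of epithelium and the endometrial line, 10 were above the array median on every array, among them KRT8, KRT18 and the progesterone receptor gene PGR. The mean signal of the leukocyte markers was 4.60 to 4.96 on MPA arrays and 4.73 to 4.76 on control arrays, and 1 of the 4 measured was above the array median on every array. So was 1 of 4 endothelial markers. Of 7 markers of fibroblasts or stroma, 3 were above it on every array (COL1A1, COL3A1 and DCN). COL3A1 measured 9.80 to 10.10 on MPA arrays and 10.35 to 10.63 on control arrays, so not all markers of other cell types were dim. The sources used here do not state that the 3 arrays of a group came from separate cultures, so p-values here reflect array-to-array spread that may be technical. Precision is limited by the number of arrays, and the smallest p of an exact permutation test with 3 arrays a group is 0.1.

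All 40 mitosis genes had signals above the array median on every array, a level that 1 of the 4 measured leukocyte markers also reached. With MPA, 0 of the 40 were called higher and 0 lower (adjusted p of 0.157 to 0.999, limma). By sign 31 were lower and 9 higher. Their log2 fold changes ran from -0.56 for CDC25B to 0.36 for HMMR, with a median of -0.12, beside a median of 0.02 over all 19775 genes. At an unadjusted p under 0.05 there were 10 lower (CCNB1, CCNB2, CDC25B, CKS2, AURKA, CDC20, UBE2C, PTTG1, KIF20A and KIF2C) and 0 higher, where 5.01% of all probe sets were lower and 5.25% higher at that level. With dim probe sets left out, 8 were lower at that level, where 6.68% of the remaining probe sets were. For 10 genes, 25% of the list, all MPA arrays lay below all control arrays, and for 0 genes above. Without overlap, 7.43% of all probe sets lay below and 7.94% above. By the brightest probe set of each gene, 7.98% of all genes lay below. In a whole culture, fewer cells in mitosis and less RNA per mitotic cell cannot be told apart.

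The mean over the 40 genes was 9.56, 9.72 and 9.50 on MPA arrays 1 to 3 and 9.61, 9.90 and 9.62 on control arrays 1 to 3. The groups overlapped, since MPA 2 lay above control 1 and control 3, and the highest array of each group was its number 2. The averages were 9.59 ± 0.11 with MPA and 9.71 ± 0.16 in control cells (SD, n = 3 arrays each), a difference of -0.12. Leaving out 1 array moved it to -0.02 without control 2, -0.07 without MPA 3 and -0.18 without MPA 2. Over all 19775 genes the mean was 6.53, 6.52 and 6.62 on MPA arrays 1 to 3. The control arrays stood at 6.53, 6.53 and 6.52, and MPA minus control was 0.03.

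**Figure D1:**
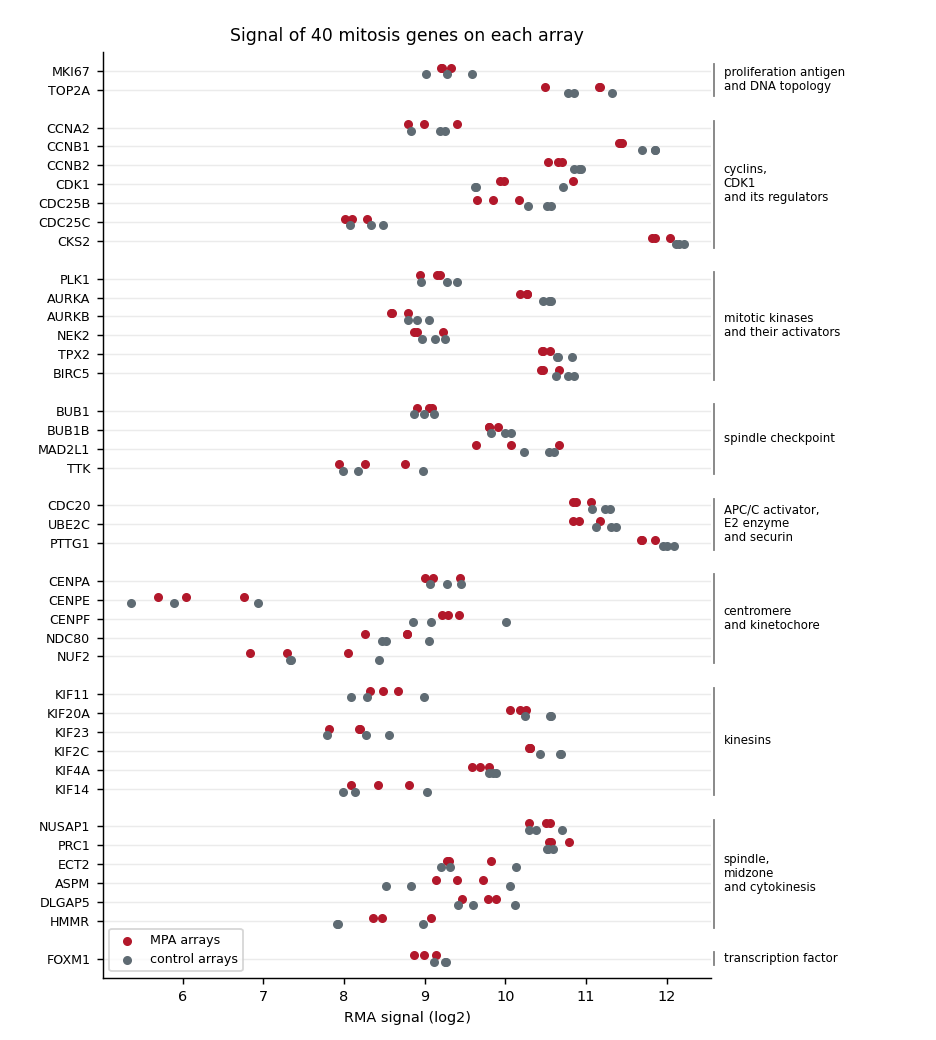
RMA signal (log2, horizontal axis) of each of the 40 mitosis genes on 3 MPA arrays (red points) and 3 control arrays (grey points), grouped by role. CENPE is the dimmest gene and CKS2 the brightest, and for genes such as CDK1, HMMR and ASPM the points of one group are spread as widely as the distance between groups or more.

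Among the genes of cyclins, CDK1 and its regulators, 4 of 7 had all MPA arrays below all control arrays: CCNB1, CCNB2, CDC25B and CKS2. CCNB1 encodes cyclin B1, the activating partner of CDK1. Its signal was 11.45, 11.43 and 11.41 on MPA arrays and 11.85, 11.69 and 11.86 on control arrays. The groups did not overlap and the MPA arrays lay close together, and the log2 fold change was -0.37 (SE 0.10, 95% interval -0.60 to -0.14, unadjusted p = 0.00585, adjusted p = 0.161, limma). That is a control level 1.29-fold that of MPA. The second probe set of CCNB1 gave the same difference, -0.37. CDC25B, a phosphatase that activates CDK1, had the largest difference of the 40, with 9.66, 9.85 and 10.18 on MPA arrays and 10.57, 10.29 and 10.51 on control arrays. All MPA arrays were lower, MPA 3 being the nearest to the controls, and the log2 fold change was -0.56 (SE 0.15, 95% interval -0.91 to -0.22, adjusted p = 0.157). CCNB1 and CDC25B were the only genes of the 40 called under any alternative setting. CCNB1 was called lower by SAM and with an intensity trend (adjusted p = 0.0364). CDC25B was called lower with the replicate number as a block (adjusted p = 0.0483) and without MPA 3 (adjusted p = 0.0433). Over all settings with a p, adjusted p ran from 0.0364 to 0.586 for CCNB1 and from 0.0433 to 0.518 for CDC25B.

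CKS2, a small subunit bound to cyclin-dependent kinases, was the brightest of the 40 genes, with 11.86, 12.04 and 11.82 on MPA arrays and 12.12, 12.21 and 12.16 on control arrays. These did not overlap (log2 fold change -0.26, adjusted p = 0.436). CCNB2, cyclin B2, had a log2 fold change of -0.28 (10.63 ± 0.08 with MPA, 10.91 ± 0.04 in control cells, SD, n = 3 arrays each, adjusted p = 0.343). CDK1 itself, the kinase that these proteins serve, was higher by sign. Its signal was 9.94, 10.84 and 9.99 on MPA arrays and 9.63, 10.72 and 9.63 on control arrays. Array 2 was the highest of each group by about the same amount, the groups overlapped, and the interval of the log2 fold change (0.26, 95% interval -0.50 to 1.03) included a doubling. CCNA2, the S and G2 cyclin A2, and CDC25C, the other CDK1 phosphatase of the list, had log2 fold changes of -0.03 and -0.16 with overlapping groups. CDC25C, among the 4 dimmest genes, measured 8.10, 8.02 and 8.29 on MPA arrays and 8.33, 8.08 and 8.48 on control arrays.

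All 6 mitotic kinases and their activators were lower by sign, and 3 had no overlap between groups: AURKA, AURKB and TPX2. AURKA, the Aurora kinase of the spindle poles, measured 10.27, 10.18 and 10.27 on MPA arrays and 10.57, 10.46 and 10.54 on control arrays. Both groups were tight, and the log2 fold change was -0.28 (SE 0.10, 95% interval -0.51 to -0.06, adjusted p = 0.309), with -0.28 also at the second probe set. TPX2, which binds and activates Aurora A, had a log2 fold change of -0.22, and AURKB, the Aurora kinase of the chromosomal passenger complex, one of -0.26 (adjusted p = 0.559 and 0.499). BIRC5, the survivin subunit of that complex, had a log2 fold change of -0.22 and overlapping groups at its brightest probe set. Its 4 probe sets ran from -0.44 to -0.11. At the dimmer probe set with -0.44 the groups did not overlap (8.04, 8.16 and 8.06 on MPA arrays, 8.69, 8.30 and 8.59 on control arrays). PLK1, the Polo kinase, measured 9.19, 8.95 and 9.15 on MPA arrays and 9.40, 8.96 and 9.27 on control arrays. Array 2 was here the lowest of both groups, the groups overlapped, and the log2 fold change was -0.11 (95% interval -0.43 to 0.21, adjusted p = 0.900). NEK2, a kinase of centrosome separation, also had a log2 fold change of -0.11.

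The genes for the APC/C activator, its E2 enzyme and securin were the group with the lowest median log2 fold change, -0.28. CDC20, which activates the APC/C at anaphase, measured 10.88, 10.84 and 11.06 on MPA arrays and 11.30, 11.08 and 11.24 on control arrays. The groups were separated by only the small gap between MPA 3 and control 2, and the log2 fold change was -0.28 (95% interval -0.54 to -0.02, adjusted p = 0.440). PTTG1, securin, which the APC/C destroys to release sister chromatids, measured 11.70, 11.68 and 11.86 on MPA arrays and 12.09, 11.96 and 12.00 on control arrays. All MPA arrays were lower (log2 fold change -0.27, adjusted p = 0.389). UBE2C, the E2 ubiquitin-conjugating enzyme of the APC/C, measured 10.85, 10.92 and 11.17 on MPA arrays and 11.37, 11.12 and 11.31 on control arrays. MPA 3 lay above control 2, so the groups overlapped, with a log2 fold change of -0.29 (adjusted p = 0.486).

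In the spindle checkpoint 0 of 4 genes separated the groups. BUB1, a checkpoint kinase of the kinetochore, measured 9.09, 9.06 and 8.91 on MPA arrays and 8.87, 9.12 and 8.99 on control arrays. Its groups overlapped, and its interval was among the narrow ones (log2 fold change 0.02, 95% interval -0.23 to 0.28, adjusted p = 0.984). Its sign turned under 5 of the alternative settings. MAD2L1, which inhibits CDC20 until chromosomes attach, measured 10.07, 10.67 and 9.64 on MPA arrays and 10.23, 10.60 and 10.54 on control arrays. The MPA arrays alone spanned more than the distance between the groups, so the log2 fold change of -0.33 had a wide interval (-0.88 to 0.21). BUB1B, the BubR1 kinase, and TTK, the Mps1 kinase, had log2 fold changes of -0.12 and -0.06.

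The 5 centromere and kinetochore genes all overlapped between groups. CENPE, a kinetochore motor and the dimmest of the 40, measured 6.05, 6.76 and 5.69 on MPA arrays and 5.89, 6.93 and 5.36 on control arrays. Array 2 was the highest of each group. NUF2, a subunit of the NDC80 microtubule-binding complex, had the same order of arrays, with 7.30, 8.05 and 6.83 on MPA arrays and 7.34, 8.43 and 7.33 on control arrays. Its log2 fold change of -0.31 (SE 0.36, 95% interval -1.14 to 0.52) was smaller than the spread within either group. CENPA, the centromeric histone H3 variant, CENPF and NDC80 had log2 fold changes between -0.09 and -0.01.

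Of the 6 kinesins, KIF2C was the one gene without overlap. It encodes a kinesin that depolymerizes microtubules at the centromere, and it measured 10.30, 10.31 and 10.30 on MPA arrays and 10.69, 10.43 and 10.67 on control arrays. The MPA arrays were nearly equal, and the log2 fold change was -0.29 (95% interval -0.54 to -0.04, adjusted p = 0.364), with -0.28 at its second probe set. KIF20A, a kinesin of cytokinesis, measured 10.18, 10.06 and 10.26 on MPA arrays and 10.56, 10.25 and 10.56 on control arrays. MPA 3 lay just above control 2, so the groups touched (log2 fold change -0.29, adjusted p = 0.475). KIF23, the kinesin of the central spindle, measured 8.19, 8.20 and 7.81 on MPA arrays and 7.79, 8.56 and 8.27 on control arrays, with a log2 fold change of -0.14 and full overlap. KIF11, the motor that separates the poles, KIF14 and the chromokinesin KIF4A had log2 fold changes of 0.04, 0.06 and -0.15.

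Among the 6 genes of spindle, midzone and cytokinesis, 4 were higher by sign and 0 separated the groups. HMMR, a microtubule-associated protein of the spindle that is also named for binding hyaluronan, measured 8.48, 9.08 and 8.35 on MPA arrays and 7.92, 8.98 and 7.92 on control arrays. Each MPA array was above the control array of the same number, yet control 2 exceeded MPA 1 and MPA 3, and the log2 fold change of 0.36, the highest of the 40, had an interval of -0.33 to 1.06 (adjusted p = 0.818). ASPM, a spindle pole protein, had a log2 fold change of 0.29 at its brightest probe set, and 0.01 and -0.22 at its other probe sets. PRC1, which bundles microtubules of the midzone, had one of 0.09, and ECT2, the exchange factor that activates RhoA for cytokinesis, one of -0.08. NUSAP1 and DLGAP5, which bind spindle microtubules, had log2 fold changes of -0.01 and 0.00.

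The usual proliferation markers did not differ beyond the spread. MKI67, the Ki-67 antigen, measured 9.33, 9.21 and 9.22 on MPA arrays and 9.02, 9.59 and 9.27 on control arrays. The MPA arrays lay inside the range of the control arrays, and the log2 fold change was -0.04 (SE 0.15, 95% interval -0.38 to 0.30, adjusted p = 0.977). TOP2A, the topoisomerase that untangles sister chromatids, measured 11.17, 11.16 and 10.50 on MPA arrays and 10.78, 11.33 and 10.85 on control arrays, again with overlap (log2 fold change -0.04, 95% interval -0.53 to 0.45). FOXM1, the transcription factor that drives many of these genes in G2, measured 8.87, 8.99 and 9.14 on MPA arrays and 9.25, 9.11 and 9.27 on control arrays. MPA 3 lay just above control 2, and the log2 fold change was -0.21 (95% interval -0.47 to 0.05, adjusted p = 0.620).

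**Figure D2:**
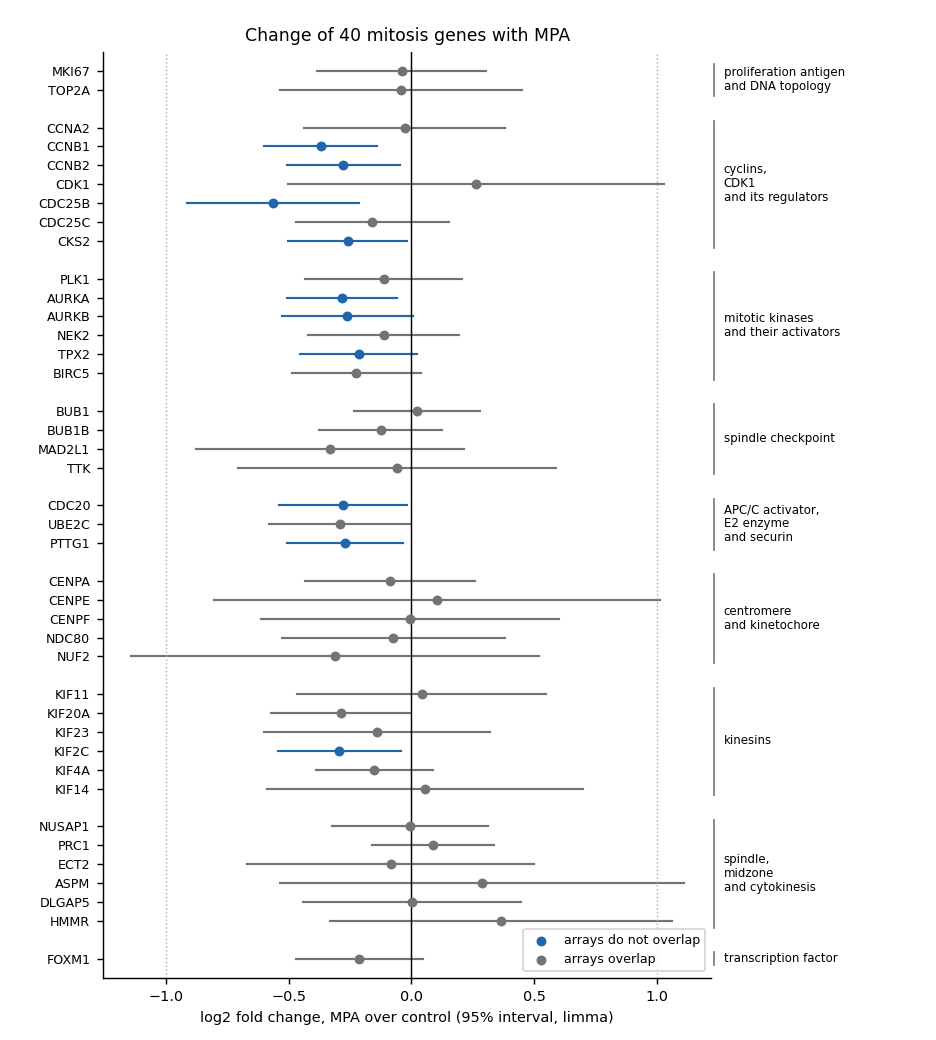
Log2 fold change of each mitosis gene, MPA over control (horizontal axis), with the 95% interval from limma over 3 MPA and 3 control arrays, grouped by role. Blue points mark the 10 genes whose MPA arrays all lay below all control arrays, and dotted lines mark a 2-fold change either way, which the intervals of CDK1, CENPE, NUF2, ASPM and HMMR reached.

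The intervals bound how large a change these arrays leave room for. For 35 of the 40 genes the 95% interval lay inside a 2-fold change in either direction, and for 5 (CDK1, CENPE, NUF2, ASPM and HMMR) it did not. A fitted level at least 25% higher in one group than in the other was reached by 3 genes downwards (CDC25B, CCNB1 and MAD2L1) and 1 upwards (HMMR), where 5.08% of all probe sets were lower and 5.83% higher by that much. The 10 genes without overlap had log2 fold changes of -0.56 to -0.22, with control levels 1.16-fold to 1.48-fold those of MPA and adjusted p-values of 0.157 to 0.559. Their mean signal was 10.59, 10.60 and 10.68 on MPA arrays and 10.98, 10.84 and 10.96 on control arrays, a difference of -0.31. This separation follows from how the 10 were picked and is given as a description. The other 30 averaged 9.21, 9.42 and 9.11 on MPA arrays and 9.15, 9.58 and 9.18 on control arrays, a difference of -0.06.

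The other probe sets of the same genes were mostly of the same sign. The 40 genes had 78 probe sets, of which 57 were lower by sign and 0 were called. Of the 21 genes with more than 1 probe set, all were lower in 13, all higher in 3 (CDK1, HMMR and KIF14) and mixed in 5 (MKI67, AURKA, BUB1, CCNB2 and ASPM). For CDK1 they ran from 0.26 to 0.41. For MKI67 the brightest gave -0.04 and the others 0.05 to 0.17.

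Beside the treatment, a second pattern ran through the list. On the arrays numbered 2, 17 of the 40 genes (42.5%) had the highest signal of the group in both groups, where 15.1% of all probe sets did, and 7 had the lowest in both, where 23.9% of all probe sets did. The 17 were CDK1, CKS2, NEK2, BUB1B, MAD2L1, TTK, CENPE, CENPF, NUF2, KIF11, KIF23, KIF14, NUSAP1, ECT2, ASPM, DLGAP5 and HMMR. NUF2 stood 0.98 above the mean of the other arrays on MPA 2 and 1.10 above it on control 2. CENPE stood 0.89 above it on MPA 2 and 1.31 above it on control 2, and CDK1 0.88 and 1.09 above it on MPA 2 and control 2. ASPM stood 0.46 above it on MPA 2 and 1.39 above it on control 2. These deviations exceeded the largest log2 fold change with MPA in the list, except that of ASPM on MPA 2. At the other end, PLK1 and KIF20A were lower on array 2, where PLK1 deviated by -0.23 on MPA 2 and -0.37 on control 2. Across the 40 genes the deviations of MPA 2 and control 2 correlated (Pearson r = 0.82, Spearman rho = 0.86). Over all probe sets their Pearson r was 0.52. The 40 genes were measured on the same 6 arrays and are not independent points. The arrays numbered 2 were highest in both groups at most probe sets of the 17 genes. Examples are 3 of 4 for CDK1, 2 of 2 for HMMR and 3 of 3 for each of ASPM, MAD2L1 and ECT2.

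**Figure D3:**
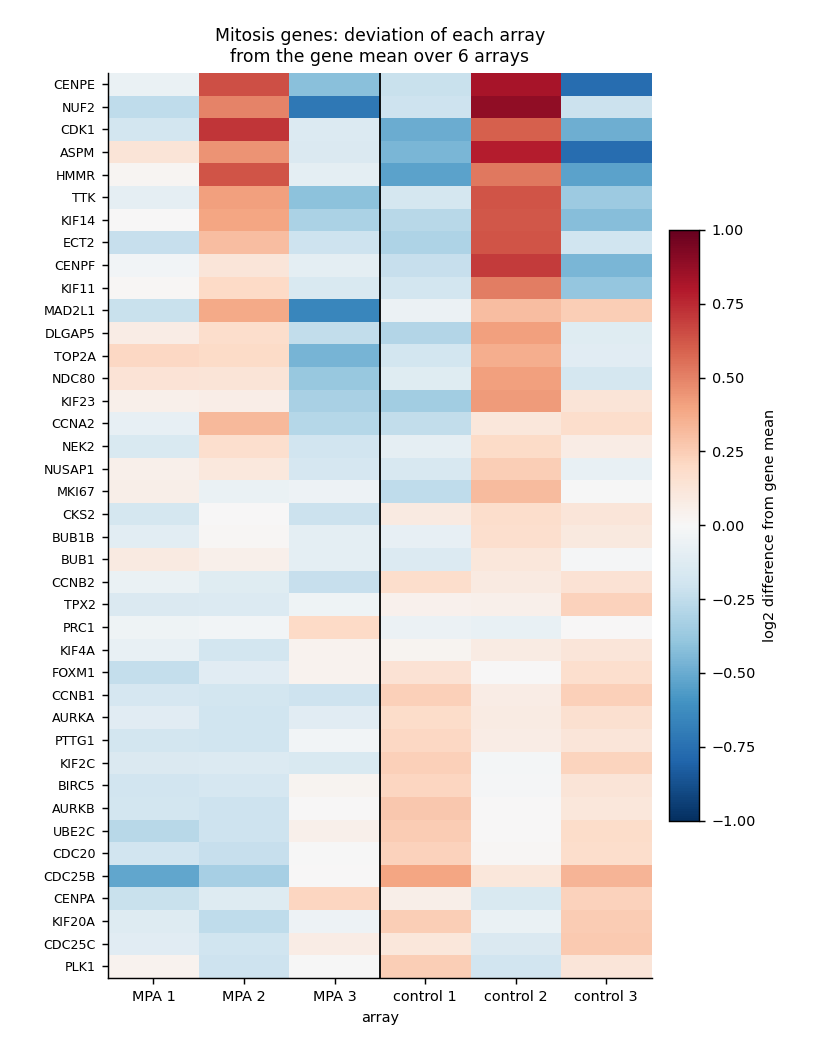
Log2 difference of each array from the mean of the gene over all 6 arrays (colour, red above and blue below), for 40 mitosis genes (rows, ordered by their deviation on the arrays numbered 2) on MPA arrays 1 to 3 and control arrays 1 to 3 (columns). The upper rows, with CENPE, NUF2 and CDK1, are red on both arrays numbered 2. Rows such as CCNB1 and AURKA are blue on MPA arrays and red on control arrays. CDC25B is too, except on MPA 3, which lay at the mean of the gene.

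The labels number the arrays without saying what a number stands for, and the cause of this pattern was not tested. The 3′ to 5′ difference of the ACTB probe sets, a sign of RNA integrity, was 0.33 on MPA 2, against 0.23 and 0.27 on the other MPA arrays, and 0.32 on control 2, against 0.32 and 0.43 on the other control arrays. That of GAPDH was -0.109 on MPA 2, between the -0.081 and -0.134 of the other MPA arrays. On control 2 it was -0.090, between the -0.088 and -0.116 of the other control arrays. The median over all genes of the deviation of array 2 was -0.095 on MPA 2 and -0.050 on control 2. RMA normalizes the arrays to each other, so these medians cannot show whether the arrays numbered 2 were brighter before it. A single gene, CKS2, was among both the 17 and the 10 without overlap. The 17 genes had a median SE of 0.26 and a median log2 fold change of -0.01. The other 23 had a median SE of 0.11 and a median log2 fold change of -0.22. The 17 were picked by differences between arrays of a group, which also enter the SE. The 23 hold all of the 10 without overlap except CKS2. This contrast therefore follows in part from how the genes were picked and is given as a description. Among promoter windows, TTTGAA was present in 14 of 16 of the 17 genes that matched (87.5%) and in 3 of 8 of the 10 without overlap that matched (37.5%), and CCAAT in 13 (81.2%) and 6 (75%). These shares rest on few windows and were not tested, and those for TTTGAA leave out other forms of the CHR.

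**Figure D4:**
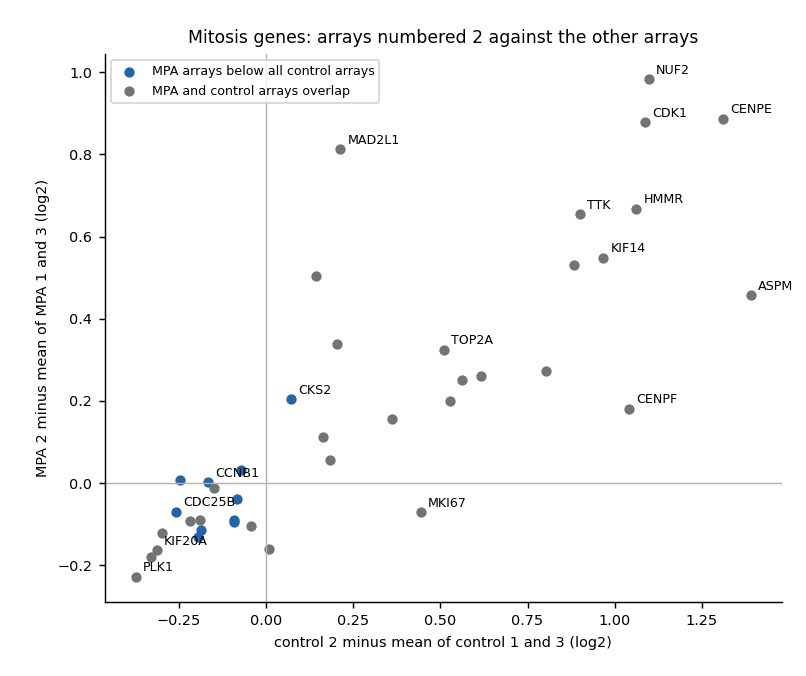
Deviation of MPA 2 from the mean of MPA 1 and 3 (log2, vertical axis) against that of control 2 from the mean of control 1 and 3 (log2, horizontal axis) for the 40 mitosis genes. Blue points, the 10 genes whose MPA arrays all lay below all control arrays, sit near 0 on both axes, and genes such as NUF2, CDK1 and CENPE lie at the upper right.

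Without both arrays numbered 2, a setting chosen after seeing the data, 20 of the 40 genes had all MPA arrays below all control arrays, where 17.9% of all probe sets did, and 5 were lower at an unadjusted p under 0.05, where 5.78% of all probe sets were. The difference of the 40-gene mean was then -0.09. CENPF moved from a log2 fold change of -0.01 over all arrays to 0.28 and MKI67 to 0.13, so these genes have no settled sign.

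Genes of the wider mitotic machinery, outside the 40, gave 1 call among 152 measured. It was TACC2, a centrosomal protein of the TACC family, with 9.80, 9.53 and 9.67 on MPA arrays and 8.34, 8.12 and 8.31 on control arrays. It rose 2.66-fold with MPA (log2 fold change 1.41, SE 0.12, adjusted p = 0.000558), and 0.80 on the log2 scale with all its probe sets averaged. The 152 genes had a median log2 fold change of -0.03. For 25 of them (16.4%) all MPA arrays lay below all control arrays, where 7.98% of all genes did. For 69 (45.4%) the arrays numbered 2 were the highest of both groups, where 16.2% of all genes had this. That share was 18 of 30 for other centromere and kinetochore genes and 11 of 16 for condensin and cohesin, the complexes that compact chromosomes and hold sister chromatids together. It was 1 of 10 for the chromosomal passenger complex and cohesion protectors. The number of genes without overlap that were lower was 6 of 30 for centromere and kinetochore genes, 4 of 20 for G2/M entry regulators, 5 of 23 for E2F, MuvB and B-Myb transcription factors, 2 of 14 for APC/C subunits and inhibitors and 1 of 11 for cytokinesis genes.

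Genes of DNA replication and S phase, the preceding stage of the cycle, were set beside the mitosis genes. Of 39 measured, 0 were called and 33 were lower by sign, with a median log2 fold change of -0.19. The lowest adjusted p was 0.0527, for the GINS subunit gene GINS4, which some alternative settings called. GINS4 had a log2 fold change of -1.25 (SE 0.26), with 8.26, 7.17 and 7.62 on MPA arrays and 9.18, 8.68 and 8.95 on control arrays. For 14 (35.9%) all MPA arrays lay below all control arrays, and for 7 (17.9%) the arrays numbered 2 were highest in both groups. Their mean was 9.52, 9.57 and 9.54 on MPA arrays and 9.74, 9.73 and 9.74 on control arrays, so that, unlike the mean of the mitosis genes, it did not overlap between groups. The difference between the lists was not tested.

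Of 12 measured genes for G1 cyclins and CDK inhibitors, 2 were called. CDKN1C, which encodes the CDK inhibitor p57, measured 8.82, 8.20 and 8.74 on MPA arrays and 7.31, 6.82 and 6.83 on control arrays, and rose 3.03-fold (log2 fold change 1.60, SE 0.20, adjusted p = 0.00449). CCND2, cyclin D2, measured 7.60, 7.61 and 8.03 on MPA arrays and 8.67, 8.71 and 8.87 on control arrays, and fell by 1.00 on the log2 scale (SE 0.14, adjusted p = 0.00872). The call of CCND2 was lost without MPA 1 (adjusted p = 0.0596) or control 3 (adjusted p = 0.0644). CDKN1A, CDKN1B and CCND1, the genes of p21, p27 and cyclin D1, had log2 fold changes of 0.11, 0.08 and -0.15 and were not called.

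**Figure D5:**
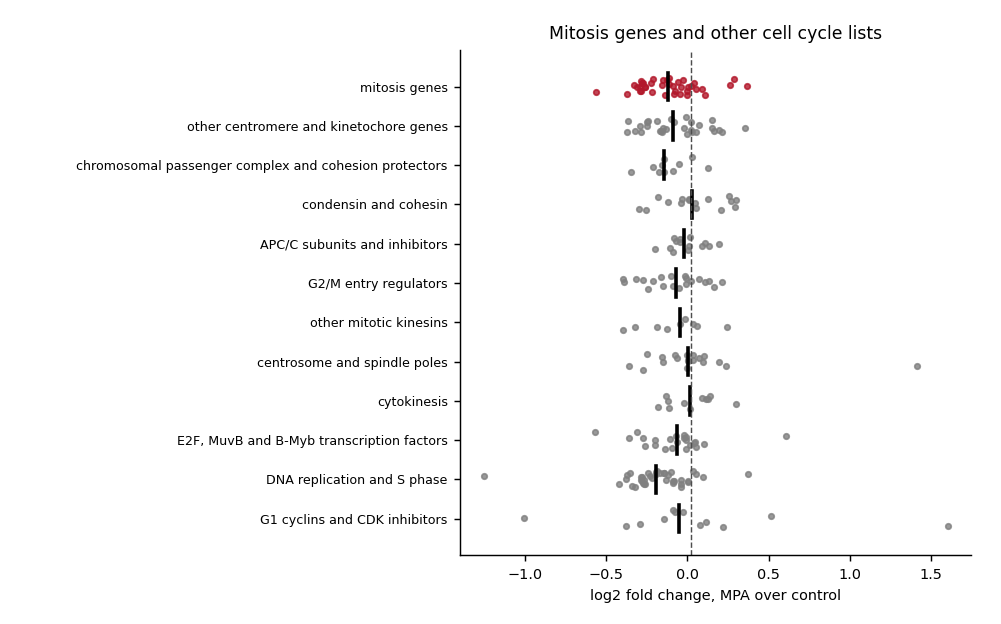
Log2 fold change, MPA over control (horizontal axis), of the mitosis genes (red points) and of genes in other cell cycle lists (grey points), 1 point per gene, with the median of each list (black bar) and of all genes (dashed line, 0.02). The medians run from -0.19 for DNA replication and S phase to 0.03 for condensin and cohesin, and TACC2, GINS4, CDKN1C and CCND2 lie far from their lists.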

How the data were processed

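Signals from Affymetrix U133 Plus 2 arrays were deposited by the authors as log2 values made with RMA. RMA corrects the background, normalizes the arrays to each other and summarizes the probes of a probe set, so these steps were not repeated and small differences remain relative to the bulk of probe sets. The sources used here name no version of the RMA software. Of 54675 probe sets, 62 Affymetrix controls were left out. Symbols came from the platform annotation, updated through Entrez identifiers to the gene table of GRCh38.p14: 41091 probe sets had 1 symbol, 1801 several and 11721 none.

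All 6 arrays were used. Group differences were fitted by lmFit and eBayes of limma 3.58.1 (R 4.3.3), two-sided and unpaired, and p-values were adjusted by Benjamini-Hochberg over 54613 probe sets. The steps were tested on simulated data. SAM, the methods' own test, was run with delta 0.53 and 20 relabelings. Tables and figures were made with Python 3.11.15. Other alternatives were the replicate number as a block, an intensity trend, no fold minimum, dim probe sets left out, a second quantile normalization, scaling by 10 housekeeping genes, all probe sets of a gene averaged, and each array left out.

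The mitosis genes, the other gene lists and the tests were chosen with earlier results of these data known. All 40 genes are accounted for. Values on each array are given for genes called under any setting, the 8 largest changes, the 4 brightest, the 4 dimmest and the usual markers of each role. Genes of other lists are named where called. GINS4, CDKN1A, CDKN1B, CCND1, the stromal markers named and the promoters printed were picked after their values were seen.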

Additional observations from a re-analysis of the deposited data

How the results depend on the processing

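With 3 arrays a group, changes of the size seen in the mitosis genes lie near the limit of what these arrays resolve. The count of mitosis genes called higher was 0 under every alternative, and that called lower, 0, became 1 with the replicate number as a block, with SAM and with an intensity trend, and was 0 to 1 with each array left out. The 10 genes lower at an unadjusted p under 0.05 were 2 to 12 with each array left out (2 without control 1 or control 3, 4 without MPA 1, 5 without MPA 2), where 3.12% to 6.12% of all probe sets were, and 5 without both arrays numbered 2, a setting chosen after seeing the data. The 10 without overlap were 10 to 16 with each array left out (16 without control 2), where 9.94% to 16.8% of all probe sets were lower without overlap, and 20 without both arrays numbered 2, where 17.9% did. The share over all probe sets was 7.43% with all arrays, and fewer arrays overlap less often. The difference of the 40-gene mean was -0.02 to -0.18 with each array left out. Over all probe sets, 663 higher and 444 lower became 1208 and 825 with the replicate number as a block, 1313 and 868 with SAM, and 353 to 725 and 156 to 465 with each array left out (fewest higher without MPA 1, fewest lower without control 3). Scaling by housekeeping genes gave 565 and 567, which moved the share of calls that were higher from 59.9% to 49.9% and the median of all probe sets to -0.05. Then 15 mitosis genes lay below without overlap, where 13.7% of all probe sets did. The 10 housekeeping genes were themselves 0.06 higher on average on MPA arrays, 3 of them without overlap, so this scaling lowers every log2 fold change. Deviations from the group means of same-numbered arrays correlated at -0.02, 0.52 and 0.33 for numbers 1 to 3, and MPA 1 and MPA 3 correlated best with another number, so the numbers were not taken as pairs.

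Of 600 log2 fold changes of the mitosis genes under alternatives, 52 turned sign, in 18 genes, none of them without overlap between groups. After scaling by housekeeping genes the log2 fold change was -0.036 for BUB1, -0.018 for KIF11, -0.0038 for KIF14 and -0.056 for DLGAP5, and after a second quantile normalization -0.0022 for BUB1 and -0.028 for DLGAP5. With all probe sets averaged it was 0.061 for MKI67 and -0.13 for BUB1. Without both arrays numbered 2 it was 0.13 for MKI67, 0.019 for TOP2A, 0.024 for TTK, 0.28 for CENPF, 0.030 for NDC80, 0.063 for NUSAP1 and 0.034 for ECT2. With each array left out it ran from -0.18 to 0.11 for MKI67, -0.16 to 0.18 for TOP2A, -0.20 to 0.11 for CCNA2, -0.031 to 0.62 for CDK1, -0.038 to 0.085 for BUB1, -0.28 to 0.24 for TTK, -0.22 to 0.0047 for CENPA, -0.25 to 0.54 for CENPE, -0.24 to 0.34 for CENPF, -0.18 to 0.11 for NDC80, -0.64 to 0.054 for NUF2, -0.14 to 0.31 for KIF11, -0.35 to 0.035 for KIF23, -0.14 to 0.38 for KIF14, -0.089 to 0.12 for NUSAP1, -0.26 to 0.21 for ECT2, -0.021 to 0.75 for ASPM and -0.14 to 0.21 for DLGAP5. The cause was not tested.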
